A study of Mus musculus with 2 samples.

Results

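The granzymes are a family of serine proteases, and 10 of them (Gzma, Gzmb, Gzmc, Gzmd, Gzme, Gzmf, Gzmg, Gzmk, Gzmm and Gzmn) were examined in T helper 2 (Th2) cells of mice lacking Ecm1 and of wild-type mice. Their members were the probe sets to which the array's annotation gives a single granzyme symbol, 11 of 45101 probe sets, covering 10 of 18193 named genes. The study had 1 Affymetrix array of Ecm1 knockout (KO) cells and 1 of wild-type (WT) cells, both from female C57BL/6 mice aged 6 weeks, in which Ecm1, a gene for a secreted extracellular matrix glycoprotein, was absent or intact. CD4 cells were taken from the spleen with an anti-CD4 antibody and magnetic beads and were cultured for 4 days on anti-CD3 with anti-CD28, IL-4, anti-IFN-γ and anti-IL-12, which favours the Th2 state. The sources used here do not say how many animals were pooled for an array or whether the cells were sorted further. With 1 array per group there was no test, SD or p-value for any difference, and each value describes these arrays only.

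Granzymes are stored in the secretory granules of cytotoxic T cells, natural killer (NK) cells and some activated CD4 T cells. Perforin opens the way for them into a target cell, where granzyme B cleaves proteins after aspartate and triggers apoptosis. In the mouse the family lies in separate loci: granzyme B shares a locus on chromosome 14 with a group of closely related granzymes and with the mast cell chymases, while granzymes A and K, which cleave after basic residues, are neighbours on chromosome 13 and granzyme M lies on chromosome 10.

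The largest differences were those of 4 of the 7 chromosome 14 granzymes, although for Gzme and Gzmg the size depended on the floor described below. Gzmc, Gzmd, Gzme and Gzmg gave signal above the floor in WT cells and were at or near background in KO cells. Gzma was lower but still abundant, and Gzmb, next to Gzmc in the genome, was nearly as high in KO as in WT cells. Signals are linear probe-set intensities. A gene counted as measured on an array when its signal was not below that array's median (65.5 in KO, 69.2 in WT), which served as the floor. Differences are log2 of KO over WT, centred on the median over 20834 probe sets measured on both arrays (-0.10). Of the 10 granzymes, 4 were measured on both arrays (Gzma, Gzmb, Gzmc and Gzmk), 3 on the WT array only (Gzmd, Gzme and Gzmg) and 3 on neither (Gzmf, Gzmm and Gzmn). At a threshold of 2-fold, 5 of the 10 were lower in KO cells and 0 were higher, against 2.75% of all named genes lower and 4.56% higher. For the 3 measured on WT alone the direction is fixed by the floor, so their count carries no weight of its own. Among 482 genes measured on the WT array alone, 10.4% had a bound of at least 2-fold, and for the 10144 genes measured on both arrays that share was 4.45%. In the signals as deposited, without centring, the 5 granzymes were the same ones, while of all genes past 2-fold 49.96% were higher, against 62.4% with centring.

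**Figure D1:**
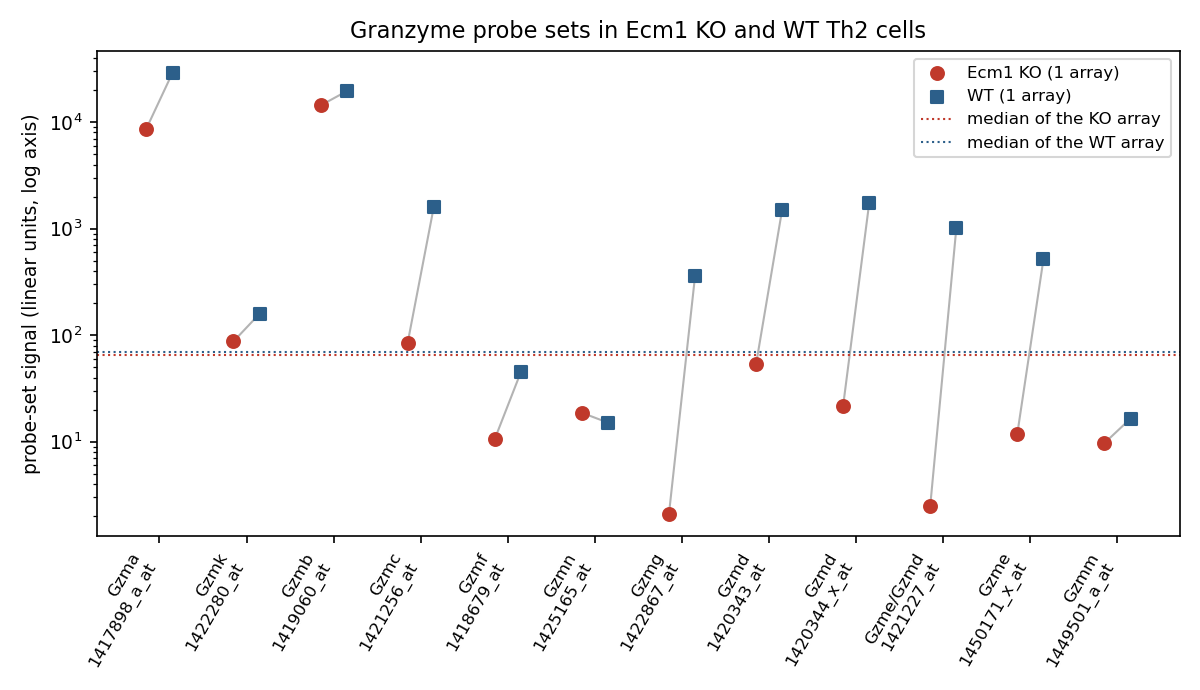
Signal of every granzyme probe set (linear units on a log axis) on the Ecm1 KO array (red circles) and the WT array (blue squares), with the array medians as dotted lines. The Gzmd, Gzme and Gzmg probe sets drop below the median in KO, Gzmc ends just above it, and Gzmb stays within 2-fold. The probe set annotated to both Gzme and Gzmd is shown but is not a member.

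Gzmc, a granzyme of activated cytotoxic lymphocytes, read 85.0 in KO cells and 1600.3 in WT cells. The KO signal was only 1.30 times the floor. After centring the difference was -4.13, or 17.5-fold lower, and 0 of the 10144 genes measured on both arrays had a lower one. Gzmd had the only pair of probe sets in the family. Its first (1420343_at) read 53.3 in KO and 1509.2 in WT, and its second (1420344_x_at) read 21.8 in KO and 1756.0 in WT. Both were below the floor in KO and over 20 times the floor in WT, and the bounds were at least 21.5-fold and at least 25.0-fold lower. Among the 482 genes measured on the WT array alone, 1 gene, Ecm1 itself (19.3 in KO, 29114.7 in WT), had a lower bound than Gzmd. For all of these genes the KO signal is set to the floor, so their order is that of the WT signals alone and does not rank the loss in KO. Whether the Ecm1 probe set lies inside the deletion is not known here. With a floor at the 70th percentile of each array the bounds were -2.44 for Gzmc and -2.35 for Gzmd.

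Gzme read 11.9 in KO and 515.9 in WT, a bound of at least 7.33-fold lower. Gzmg read 2.1 in KO and 360.5 in WT, a bound of at least 5.12-fold lower. Both were thus far below the KO floor, and the size of their bounds was set by the WT signal. With a floor at the 70th percentile neither was past 2-fold (bounds of -0.80 for Gzme and -0.29 for Gzmg). A further probe set (1421227_at), which the annotation assigns to Gzme and Gzmd together, read 2.5 in KO and 1016.6 in WT. Gzme and 1 Gzmd probe set carry the suffix _x_at, which marks probes that can bind several transcripts, so the separate values of these close relatives are uncertain and signal may be shared between them. The probe sets of Gzmc and Gzmg, and the first of Gzmd, carry the plain suffix _at and read lower in KO as well. That suffix does not show that a signal belongs to 1 gene, since 1421227_at, assigned to Gzme and Gzmd together, also carries it. Of 12601 probe sets that read at least 360.5 in WT, the Gzmg value, 12 were below the floor in KO. The cut was chosen after the values were seen, so that the 5 granzyme probe sets just described are among the 12 by its choice. In the reverse direction, 17 of 12147 probe sets that read at least 360.5 in KO were below the floor in WT. The other named ones of the 12 were Ecm1, the kinase gene Matk (42.5 in KO, 642.1 in WT), Slfn5 (45.0 and 404.8), Tgfb3 (56.6 and 386.5) and Nck2 (54.4 and 386.4), and 2 had no gene name.

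**Figure D2:**
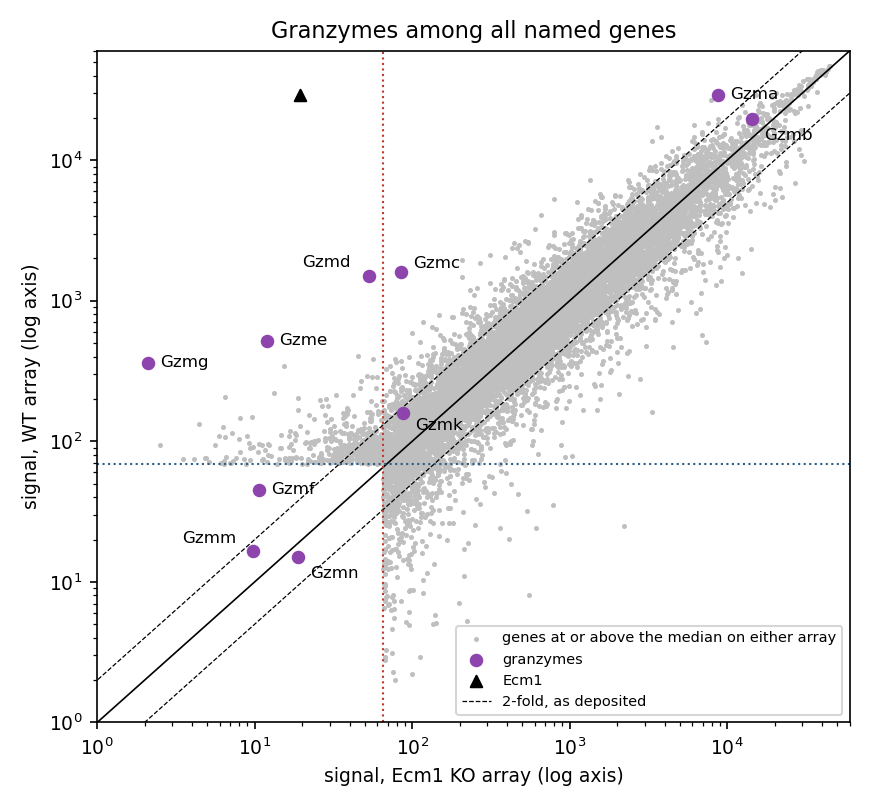
Signal on the KO array (x) against the WT array (y) for every named gene measured on at least 1 array (grey), both axes logarithmic and starting at 1, with the granzymes in purple, Ecm1 as a triangle, the array medians dotted and the 2-fold lines dashed. Gzmc, Gzmd, Gzme and Gzmg lie apart from the cloud towards Ecm1, while Gzmb lies near the line of equal signal.

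Gzmf and Gzmn belong to the same locus but were below the floor on both arrays, so neither has a fold. Gzmf read 10.6 in KO and 45.1 in WT. Gzmn, in mouse best known from the testis, read 18.7 in KO and 15.1 in WT. Neither gene gave a signal above the array medians.

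Gzmb, the aspartate-specific granzyme, behaved differently from its neighbour Gzmc. It read 14331.3 in KO and 19512.5 in WT, a difference of -0.34 or 1.27-fold lower. That is close to the technical SD of 0.36, which was estimated from genes with several probe sets (4657 genes) and leaves out animal, culture and array error. Of the genes measured on both arrays, 24.4% had a lower difference than Gzmb. The differences within the locus, -4.13 for Gzmc and -0.34 for Gzmb, were thus far apart relative to that SD, although each rests on 1 probe set.

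The chromosome 13 pair differed in size. Gzma, a tryptase and with Gzmb a main granzyme of cytotoxic T and NK cells, read 8692.4 in KO and 29033.8 in WT, a difference of -1.64 or 3.11-fold lower. Relative to the median of pan T cell genes, given below, it was at -0.88 and no longer past 2-fold. On the first scale 0.759% of genes measured on both arrays were lower than Gzma. Gzmk, its neighbour and also a tryptase, read 87.4 in KO and 159.1 in WT. Its difference of -0.76 was within 2-fold, and both signals lay near the floor. Gzmm, which cleaves after methionine and is known from NK cells, read 9.7 in KO and 16.5 in WT, below the floor on both arrays. The probe sets of Gzma and Gzmm end in _a_at, which marks transcripts of 1 gene.

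Among the genes listed around the chromosome 14 granzymes, only Cenpj, Parp4 and Mphosph8, all on the Gzmb side, were measured, and they were within 2-fold. On the Gzme side no neighbour was measured, so a loss could not have been seen there. In their genomic order, as RefSeq lists it for GRCm38.p6, the granzymes run Gzme, Gzmd, Gzmg, Gzmn, Gzmf, Gzmc and Gzmb, so Gzme, Gzmd and Gzmg, which were below the floor in KO alone, lie next to each other, and Gzmn and Gzmf stand between them and Gzmc. On the Gzme side lie cathepsin G (Ctsg) and the mast cell proteases. All 6 of these with a named probe set were below the floor on both arrays, the highest being Mcpt8 with 37.5 in KO and 23.9 in WT. On the Gzmb side Atp12a and Rnf17 were below the floor, and the next genes were at 0.29 (Cenpj), -0.05 (Parp4) and -0.13 (Mphosph8). Beside Gzmk on chromosome 13, Esm1 read 58.6 in KO and 238.1 in WT, a bound of -1.76.

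**Figure D3:**
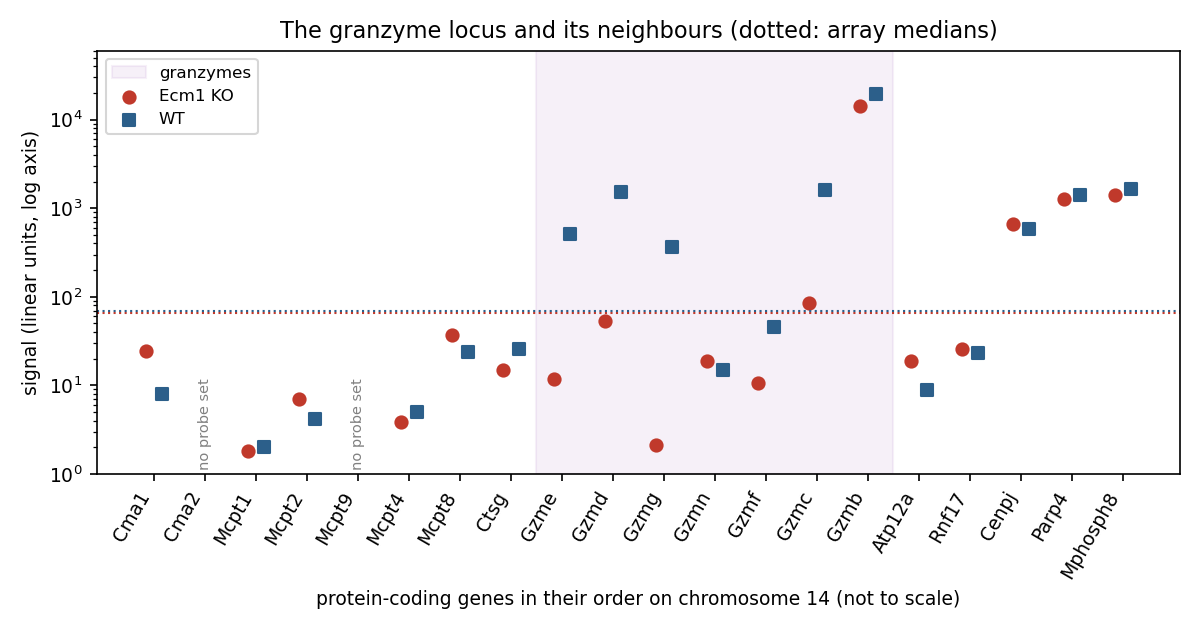
Signal (log axis) of protein-coding genes in their order on mouse chromosome 14, KO as red circles and WT as blue squares, with the granzymes shaded. Gzme, Gzmd and Gzmg fall below the median in KO and Gzmc ends just above it, while Gzmb, Cenpj, Parp4 and Mphosph8 are within 2-fold and the chymases stay below the dotted medians on both arrays.

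The promoters of the family were compared because Gzmc, Gzmd, Gzme and Gzmg were all lower in KO cells. RefSeq promoters (build GRCm38.p6, 250 bases before to 50 after the annotated start, 300 in all) were found for 10 of 10 granzymes by symbol. Those of Gzmc, Gzmd, Gzme, Gzmf and Gzmg were 79.7% to 93.7% identical to each other over 10 pairs (median 84.3%), whereas the other 35 pairs of the family, including every pair with Gzmb, had 49.0% to 56.3%. The 250 upstream bases are shown for Gzmc, Gzmd and Gzmg, which were lower in KO, for Gzmf, which has a like promoter but no signal above the floor on either array, and for Gzmb and Gzma, which were well above the floor on both arrays. Capitals mark the core of the RUNX motif, TGTGGT, or its complement.
Gzmc (chr14:56234658-56234907, minus strand): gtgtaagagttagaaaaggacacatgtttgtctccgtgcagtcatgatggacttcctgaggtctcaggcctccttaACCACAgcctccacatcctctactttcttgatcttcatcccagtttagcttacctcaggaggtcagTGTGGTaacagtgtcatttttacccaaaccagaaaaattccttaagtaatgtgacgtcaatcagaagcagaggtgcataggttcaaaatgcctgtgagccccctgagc
Gzmd (chr14:56132594-56132843, minus strand): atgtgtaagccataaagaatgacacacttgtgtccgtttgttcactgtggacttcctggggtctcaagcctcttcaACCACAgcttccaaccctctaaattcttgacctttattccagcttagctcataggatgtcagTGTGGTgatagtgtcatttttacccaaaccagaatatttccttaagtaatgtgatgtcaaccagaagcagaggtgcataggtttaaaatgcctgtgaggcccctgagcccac
Gzmg (chr14:56159580-56159829, minus strand): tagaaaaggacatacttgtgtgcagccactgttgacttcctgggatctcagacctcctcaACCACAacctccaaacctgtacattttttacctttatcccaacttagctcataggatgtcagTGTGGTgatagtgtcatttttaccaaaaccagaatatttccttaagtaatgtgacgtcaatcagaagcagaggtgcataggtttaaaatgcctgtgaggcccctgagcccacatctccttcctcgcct
Gzmf (chr14:56211408-56211657, minus strand): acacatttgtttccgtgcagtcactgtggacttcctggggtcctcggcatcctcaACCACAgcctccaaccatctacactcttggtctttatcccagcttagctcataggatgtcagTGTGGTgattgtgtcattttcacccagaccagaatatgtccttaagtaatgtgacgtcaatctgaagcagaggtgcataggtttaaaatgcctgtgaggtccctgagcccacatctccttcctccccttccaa
Gzmb (chr14:56262335-56262584, minus strand): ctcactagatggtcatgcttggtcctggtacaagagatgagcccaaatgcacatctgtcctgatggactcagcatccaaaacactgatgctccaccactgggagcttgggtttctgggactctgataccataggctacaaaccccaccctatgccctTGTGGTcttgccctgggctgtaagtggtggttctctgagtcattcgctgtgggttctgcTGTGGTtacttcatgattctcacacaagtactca
Gzma (chr13:113100982-113101231, minus strand): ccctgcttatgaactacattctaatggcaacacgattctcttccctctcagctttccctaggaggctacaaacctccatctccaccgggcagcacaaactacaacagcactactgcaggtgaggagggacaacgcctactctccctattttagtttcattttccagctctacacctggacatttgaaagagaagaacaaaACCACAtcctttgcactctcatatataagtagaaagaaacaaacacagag
Gzmc, Gzmd, Gzmg and Gzmf carry the motif at like places, and Gzmb at others. On both strands, TGTGGT was present in 8 of the 10 first-listed granzyme promoters (not in Gzmk or Gzmn) and in 16.8% of 32851 mouse promoters of the same length. The like promoters are copies of each other, so these are not 8 separate occurrences. The T-box core GGTGTG was found in Gzmc, Gzme and Gzmk and in a second promoter listed for Gzmm (19.0% of all promoters) and the TATA box TATAAA in Gzmn (13.6%). The AP-1 motif TGANTCA was found in Gzmb alone among the first promoters (7.81% of all), and the STAT motif TTCNNNGAA in Gzmb and Gzmm (8.30%). The STAT match of Gzmb (position 38) and the T-box match of Gzmc (position 2) lie after the annotated start, outside the bases printed above. The longest run shared exactly by the 5 alike promoters had 20 bases and began 45 to 70 bases before the annotated starts.
Shared run: gaagcagaggtgcataggtt
It was found in 5 of the 32851 promoters, all of them these granzymes. A match is a description of the letters and no measure of binding. Gzmf, with a like promoter, read 10.6 in KO and 45.1 in WT, below the floor on both arrays. Its 1 probe set cannot tell whether the gene followed the others, and a part of the promoters in the differences was not tested.

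**Figure D4:**
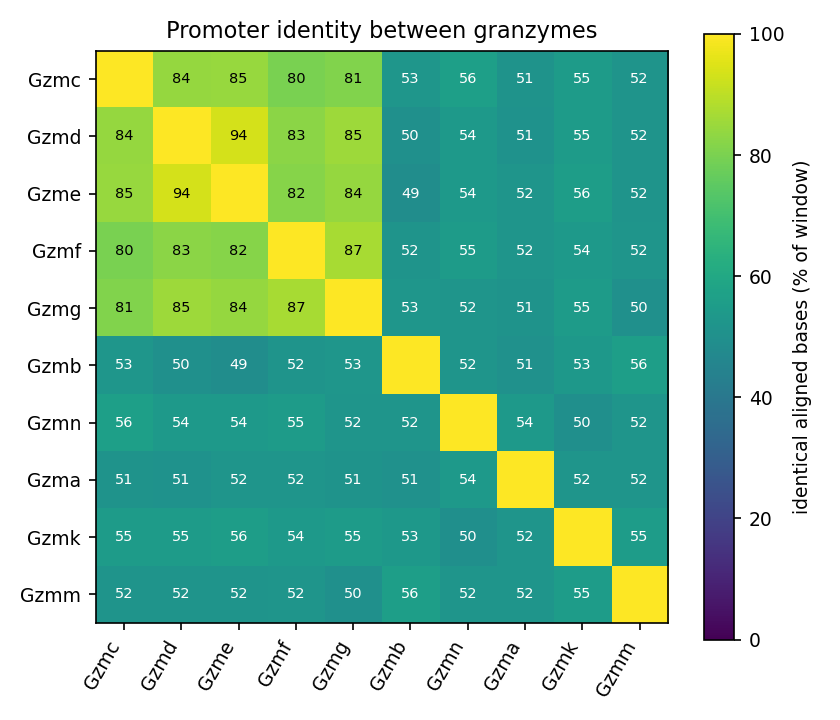
Identical aligned bases between granzyme promoters, as a percentage of the 300-base window, by global alignment. Gzmc, Gzmd, Gzme, Gzmf and Gzmg form a block of 79.7% to 93.7%, and all other pairs lie between 49.0% and 56.3%.

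Several granule partners of granzymes were lower in KO cells, and perforin was within 2-fold. Of 12 genes of cytotoxic granules and their release, all measured, 4 were at least 2-fold lower, 0 higher and 8 within 2-fold, with a median of -0.53 against 0.05 over all measured genes. Of the genes measured on at least 1 array, 4.45% were at least 2-fold lower and 7.37% higher. Prf1, which encodes perforin, read 281.4 in KO and 481.9 in WT (-0.67, and -0.05 in its other probe set). Srgn, the proteoglycan core that holds granzymes in the granule, read 28705.2 in KO and 30657.4 in WT (0.01). Ctsc, the peptidase that activates granzymes, read 5966.7 in KO and 4208.8 in WT (0.61). The lower members were Ctsw, a cathepsin of cytotoxic lymphocytes (-2.31), Nkg7, a granule membrane protein (-1.77), Lyst, a regulator of lysosome-related granules (-1.66), and Fasl, the death ligand (64.9 in KO, just below the floor, and 164.1 in WT, a bound of -1.22). Lamp1 (0.33), Unc13d (-0.19) and Stx11 (-0.45), which serve granule identity and fusion, were within 2-fold, as were Rab27a (-0.62) and Stxbp2 (-0.25).

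Of 5 measured serpin genes of the granzyme inhibitor list, 1 was at least 2-fold lower and 4 were within 2-fold (median -0.81), beside 4.45% lower over all measured genes. Serpinb9, the mouse inhibitor of granzyme B, read 413.4 in KO and 1006.8 in WT (-1.18, and -0.51 in its other probe set). Serpinb6b, an inhibitor of mouse granzyme A, read 1441.8 in KO and 2707.8 in WT (-0.81). Serpinb6a was at -0.82 and Serpinb1a at 0.49, and Serpinb9b reached the floor only in WT (74.3).

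Among transcription factors of cytotoxic genes, 4 of 13 were at least 2-fold lower, 1 was higher and 8 were within 2-fold (median -0.33), again beside 4.45% lower and 7.37% higher over all measured genes. Tbx21, which encodes T-bet, read 504.7 in KO and 1489.8 in WT (-1.46). Bhlhe40 was at -1.43, Hopx at -1.28 (-0.99 in its other probe set) and Stat5b at -1.06 (0.17 in its other probe set). Irf4, which is also high in plasma cells, was at 2.14, but its other probe set was within 2-fold (0.95). Prdm1, which encodes Blimp-1, was at 0.94. Runx3 (-0.25), Id2 (-0.30) and Eomes (0.35, with -0.76 in its other probe set) were within 2-fold. Of 8 measured receptors for cytokines that induce granzymes, 2 were at least 2-fold lower and 6 were within 2-fold (median -0.36). The lower receptors were Il18r1 (-1.49) and Il7r (-1.43, and -2.59 in its other probe set). The IL-2 receptor chains Il2ra and Il2rb, which lie upstream of granzyme induction, were at 0.74 and -0.15.

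T cell, CD8 and NK transcripts moved with the granzymes, and their part in the result was not tested. For the 10 measured pan T cell genes the median was -0.76, 4 were at least 2-fold lower and 0 higher, and the summed signal was 65886 in KO and 122328 in WT. The lower ones were Cd4 (-1.59), Cd5 (-1.41), Cd247 (-1.29) and Cd28 (-1.03). Set against the list median, Gzmk was at 0.00, Gzmb at 0.42 and Gzma at -0.88, under 2-fold, whereas Gzmc was at -3.37 and the bounds were -3.66 for Gzmd, -2.11 for Gzme and -1.60 for Gzmg. In bulk RNA, fewer cells of a type and less RNA per cell cannot be told apart. Of the 9 CD8 T and NK markers on the array, 6 were measured, 5 of them at least 2-fold lower and 0 higher (median -1.28), beside 4.45% lower over all measured genes, and the summed signal of the list was 1926 in KO and 5456 in WT. They included Klrd1 (111.7 in KO, 509.1 in WT), Cd8b1 (541.0 in KO, 1326.0 in WT), Klrk1 (a bound of -1.37) and Fcgr3 (-1.53), which macrophages also express. The brightest probe set of Cd8a was at -1.19, and its others measured on both arrays ran from -0.41 to 0.40. Ncr1, a defining NK marker, was below the floor on both arrays (30.2 in KO, 22.2 in WT), as was Xcl1 (15.8 and 19.0).

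**Figure D5:**
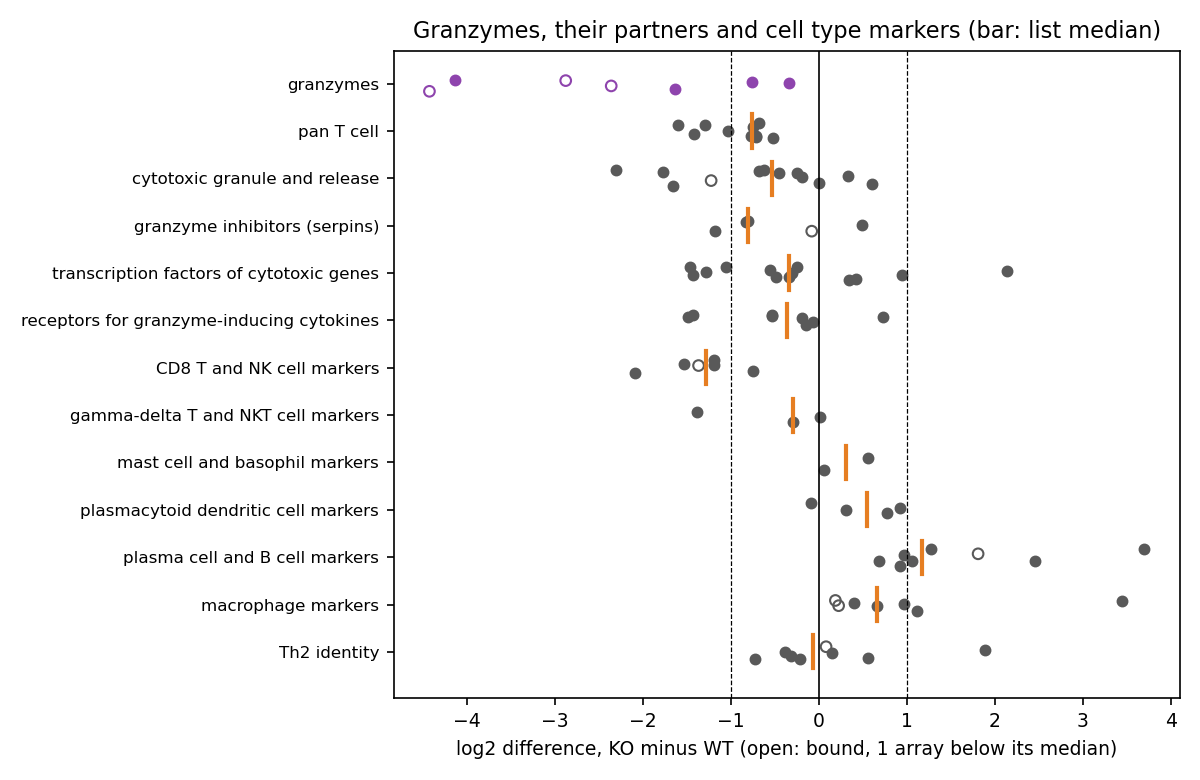
Log2 differences (KO minus WT) of the measured granzymes (purple), their partners and regulators, and cell type markers (grey), with open circles for bounds and orange bars for list medians. Each gene is shown by its brightest probe set. The lowest partner, regulator or marker gene shown is Ctsw at -2.31, against -4.13 for Gzmc and a bound of -4.42 for Gzmd.

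Markers of further cell types differed in direction. Of 7 mast cell and basophil genes on the array, 2 were measured, Cpa3 (103.4 in KO, 75.2 in WT) and Gata2 (101.4 in KO, 104.1 in WT), and the list summed to 351 in KO and 258 in WT. Of 3 measured γδ T and NKT cell genes, 1, Zbtb16 (-1.38, with opposite signs between probe sets), was at least 2-fold lower, beside 4.45% over all measured genes. The list summed to 340 in KO and 552 in WT. Plasmacytoid dendritic cell markers had a median of 0.54 over 4 genes, with 0 past 2-fold and sums of 2432 in KO and 1743 in WT, and their defining marker Siglech was below the floor (34.3 in KO, 42.3 in WT). Plasma and B cell markers were higher in KO, with 5 of 8 at least 2-fold higher, beside 7.37% over all measured genes (median 1.17, sums of 86279 in KO and 43470 in WT). They were Sdc1 (3.70 in an _x_at probe set), Blnk (2.46), Tnfrsf17 (a bound of 1.81), Cd79b (1.28) and Jchain (1.06). The other Sdc1 probe sets measured on both arrays were at 2.45 and 0.79. Xbp1 (0.97), Cd79a (0.93) and Ms4a1 (0.69) were within 2-fold, but the other Xbp1 probe sets were at 1.35 to 1.67. Pax5 was below the floor on both arrays (44.6 in KO, 56.2 in WT), and its other probe set read 72.9 in KO and 15.2 in WT. Macrophage markers had 2 of 7 at least 2-fold higher, Lyz2 (3.45) and Csf1r (1.12), and 5 within 2-fold (median 0.67, sums of 4117 in KO and 1042 in WT). Itgam was below the floor on both arrays (38.8 in KO, 35.4 in WT). Of the genes listed for the labelled cell type, Gata3, the Th2 master regulator, read 5958.6 in KO and 7423.4 in WT, Il4 read 923.1 in KO and 1233.0 in WT, Ccr4 was near the floor (75.1 in KO, 105.1 in WT), Il5 reached it in KO alone (68.3 in KO, 26.1 in WT), and Ptgdr2 was below it on both arrays (5.9 in KO, 4.7 in WT). Whether the cells were Th2 cells was not tested. By the brightest probe set of each gene, the Th2 list (8 measured genes, median -0.07) had 7 within 2-fold, and the remaining one, Il13, was higher (1.89). Maf was at -0.73 in that probe set, and its others measured on both arrays were past 2-fold lower, from -1.65 to -1.14. The sample descriptions name liver, but 0 of 7 hepatocyte genes on the array were measured.

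The genes with signals nearest to a granzyme on both arrays were taken over these 2 values only, with the granzymes themselves left out. For Gzma they were Ms4a4b, a T cell membrane protein (7923.2 in KO, 26709.8 in WT), Xist, Ets1, Igtp and Thy1, within 0.68 on the log2 scale. For Gzmd, with its KO signal set to the floor, the nearest were Tdrp (116.6 in KO, 706.7 in WT), Gm34006, Cyria, Ramp1 and Selenbp1, at distances of 1.37 to 1.65.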

How the data were processed

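Transcripts were measured on 1 Affymetrix array per group. Biotin-labelled cRNA was made from 3 µg of total RNA with the one-cycle assay, per the labels' protocols. The deposited values are linear intensity values, 1 per probe set, and the sources used here do not name the summarisation software. They look globally scaled, since means over the central part of each array were 499.6 in KO and 499.9 in WT, while the 75th percentiles were 423.4 and 456.2. Such scaling fixes the mean over that central part, so a rise in many of its transcripts lowers the other values. The brightest and dimmest probe sets lie outside it. The number of arrays limits the precision.

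The 64 control probe sets were left out of centring and naming. Probe sets with 1 symbol in the platform annotation (34945) were named, and 932 with several were not. Each gene was represented by the probe set with the highest mean log2 signal. Signals below the array median were set to it, which leaves a bound where 1 array was below and no fold where both were. Promoters were aligned globally with Biopython 1.88 (match 1, mismatch -1, gap open -3, gap extension -0.5), and motif letters were searched on both strands. Named were every granzyme, the list members at least 2-fold apart, and the 5 genes nearest to Gzma and Gzmd. A planned rule of up to 4 others of a list with the largest difference was not kept throughout. Other genes, such as neighbours in the locus and list members within 2-fold, were chosen after their values were seen. The members and the 14 gene lists were chosen with earlier results of these data known. The calling procedure was tested on simulated data. A planned comparison of protein sequences was not run, since no protein sequences were used here.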

Additional observations from a re-analysis of the deposited data

How the results depend on the processing

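No paired analysis was possible because there was a single array for each genotype. Under 8 alternatives (no centring, quantile normalization, loess with span 0.3, a floor at the 70th percentile, no floor, mean of probe sets, without _x_at and _s_at probe sets, and brightest probe set in WT) 0 granzymes were at least 2-fold higher. The count of granzymes at least 2-fold lower was 5 in the main setting and in 5 of the alternatives. It was 3 with the floor at the 70th percentile (Gzma, Gzmc and Gzmd), where Gzmc had a bound of -2.44, Gzmd of -2.35, Gzme of -0.80 and Gzmg of -0.29, and Gzmk was not measured. It was 6 with no floor, where Gzmf is added and Gzme read -5.35 and Gzmg -7.34. It was 4 without _x_at and _s_at probe sets, which leaves Gzme with no value. Gzma stayed between -1.75 and -1.64 and Gzmb between -0.49 and -0.34 over these alternatives. Relative to the pan T cell median Gzma was at -0.88, which ends its call, and Gzmb at 0.42, while Gzmc, Gzmd, Gzme and Gzmg stayed past 2-fold lower. Over all genes, 320 were lower and 490 higher at the 70th percentile floor, and 2316 lower and 2818 higher with no floor, since fewer or more genes are then measured. Without centring the median over measured genes was -0.05 in place of 0.05. With no floor the γδ T and NKT median was -0.85, the plasmacytoid dendritic cell median 0.10 and the Th2 median 0.14, and at the 70th percentile floor the macrophage median was 2.10. Other genes of these lists are then measured, and the cause was not tested further. Signal over background limits Gzmc and Gzmk in KO cells, which read near the floor.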
